A study of Mus musculus with 2 samples.

Results

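The genes described here are 10 that move calcium in the unfertilised mouse egg, or open in answer to it: the inositol trisphosphate receptors Itpr1, Itpr2 and Itpr3, the pumps Atp2a2 and Atp2b1, the store sensor Stim1 with its channel Orai1, the plasma membrane channels Trpm7 and Cacna1h, and the calcium-activated chloride channel Ano1. They are a list of symbols with no cut on measured values, chosen with earlier results of these data known. Their probes are all non-control probes of the array that carry one of these symbols. The 10 genes have 28 probes, and all 10 were measured on both arrays, out of 22921 genes measured on both and 37074 gene names on the array. RNA came from pools of unfertilised oocytes of C57BL/6 mice, 123 oocytes from Mul1 -/- (knockout) animals and 213 from Mul1 +/+ (wild-type) animals. Mul1 is a ubiquitin ligase of the mitochondrial outer membrane, and which stretch of the gene was deleted is not given in the labels. Each pool was read on 1 Agilent array in a single colour (Cy3), and the 2 arrays shared a slide. With 1 array per genotype there is no replicate check and no test, so differences are given as sizes only.

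Calcium in the egg is stored in the endoplasmic reticulum. At fertilisation a phospholipase brought by the sperm makes inositol trisphosphate, which opens Itpr channels and sets off repeated calcium waves. Between waves the stores are refilled by the reticulum's pumps, and calcium lost from the cell is replaced through channels of the plasma membrane.

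Every value below is a processed signal in the scanner's arbitrary intensity units or a log2 difference, knockout minus wild type, with the 75th percentile of each array taken as its zero. The error beside a difference combines the signal errors given by the scanner software, which are at least 10% of the signal, so that no difference has an error under 0.20. It covers spot noise and not the spread between pools. For 286 probes printed at 10 spots each, the SD of the difference between spots had a median of 0.04. A signal was usable down to 15.8 on the knockout array and 12.9 on the wild-type array, the lowest signals called well above background, and no spot was saturated. The Mul1 probe for transcript NM_026689 read 1074 on the knockout array and 3353 on the wild-type array, a log2 difference of -1.61, while its other probe read 23.1 and 19.3 in the same order, a difference of 0.29. The 7 Gapdh probes differed by -0.05 to 0.12 and the Actb probe by 0.00. Of 17 oocyte markers 16 were measured on both arrays, with differences from -0.21 to 0.94 and a median of 0.04. At least 1.5-fold higher in the knockout were 2 of the 16 and none was as far lower, against 7.84% and 5.19% of all genes. The 16 had a summed signal of 195390 on the knockout array and 215236 on the wild-type array, and Figla was above background on the wild-type array only. All 20 cumulus and granulosa markers were measured as well, so the pools also held RNA of genes known from other ovarian cells. In pooled RNA, fewer cells of a type and less RNA per cell cannot be told apart.

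None of the 10 calcium genes differed at least 2-fold between the genotypes, and 1, Ano1, differed at least 1.5-fold. Over all genes 4.29% differed at least 2-fold and 13% at least 1.5-fold. Of the 10 genes 8 lay within 1.3-fold of equal and 5 within 1.2-fold, 6 above 0 and 4 below. Over all genes 54.8% were above 0. The shares of all genes within 1.3-fold and 1.2-fold were not computed, so these counts do not set the 10 genes apart. Their median difference was 0.06, against 0.03 over all genes. The 3 Itpr genes were the lowest 3 of the 10 and Ano1 the highest. Of the 28 probes 23 were well above background on both arrays, 2 on the wild-type array only and 3 on neither. Among the 23, 3 differed at least 1.5-fold, against 13.8% of all such probes, and their median difference was -0.07, against 0.02. The difference exceeded 2 times the scanner error at 2 of the 23, the Itpr1 clone probe AK049015 and the Ano1 probe, and reached 1.86 times it at most among the other 21. The share of all array probes past 2 times their error was not computed, so this count cannot be set against the array.

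**Figure D1:**
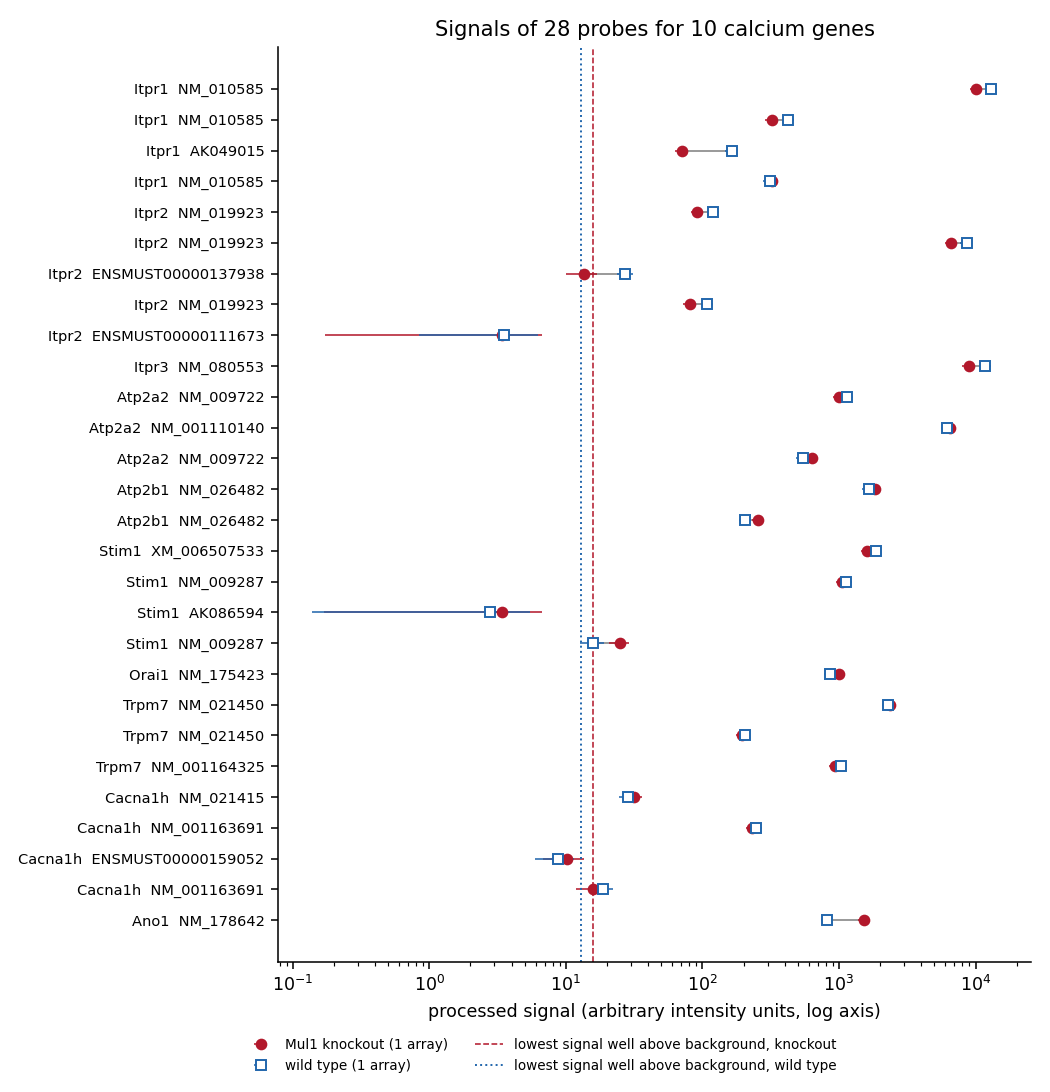
Processed signal of each of the 28 probes (log axis, arbitrary intensity units) on the Mul1 knockout array (filled circles) and the wild-type array (open squares). Lines through the points show the signal error of the scanner software, drawn no wider than the signal, and the vertical lines mark the lowest signal well above background, 15.8 on the knockout array and 12.9 on the wild-type array. Among probes above background on both arrays the widest gaps are at the Itpr1 clone probe AK049015, lower in the knockout, and at Ano1, higher in the knockout, followed by the dim upstream Stim1 probe; the Itpr2 probe ENSMUST00000137938 is also far apart, but its knockout signal is not well above background.

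The release channels read lower on the knockout array at nearly every probe. Itpr1 is the receptor known to carry the calcium waves of the mouse egg. Its probe closest to the 3′ end (NM_010585, chr6:108501020-108501079, plus strand, mouse build mm9) read 10073 in the knockout and 13032 in the wild type, a difference of -0.34 ± 0.20. A second NM_010585 probe, 110 kb upstream of it at chr6:108390577-108390636, read 321 in the knockout and 423 in the wild type (-0.37 ± 0.21). These probes, which match the RefSeq transcript far apart in the gene, gave nearly the same difference, 1.26-fold and 1.29-fold lower in the knockout.

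The other 2 Itpr1 probes disagreed with them and with each other. The probe for AK049015, a cDNA clone and no RefSeq transcript, lies 158 kb upstream of the 3′-most probe at chr6:108342932-108342991 and read 71.0 in the knockout and 164 in the wild type, a difference of -1.17 ± 0.22 or 2.25-fold. The probe nearest the 5′ end, for NM_010585 and 310 kb upstream, covers its 60 bases over chr6:108187033-108191269, as a probe across a splice junction does, and it read 325 in the knockout and 311 in the wild type (0.10 ± 0.21). The difference at the clone probe shrank to -0.75 with normexp background correction. The mean over the 4 probes is therefore a mixture, with 1 probe past 1.5-fold, 2 near 1.3-fold and 1 on the other side of 0. The sequences of the 3 upstream probes are shown because they separate the RefSeq transcript from the clone. Capitals mark the hexamer AATAAA, the common signal for cleavage and polyadenylation when it lies near a transcript's end.

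Itpr1 NM_010585, 310 kb upstream: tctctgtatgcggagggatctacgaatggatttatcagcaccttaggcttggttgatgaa

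Itpr1 AK049015, 158 kb upstream: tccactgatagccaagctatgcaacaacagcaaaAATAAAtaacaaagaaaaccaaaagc

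Itpr1 NM_010585, 110 kb upstream: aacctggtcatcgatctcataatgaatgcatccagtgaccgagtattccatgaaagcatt

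The clone probe consists of 53.3% A, which 0.0989% of the array's probes reach or exceed, and each of its 3 forward reading frames holds a stop codon. Both NM_010585 probes have 1 forward frame without a stop, lower A content at 23.3% and 31.7%, and no AATAAA. The hexamer, searched on the probe's own strand only, was in 3 of the 28 probes, against 9.77% of all 56605 array probes. Exon and intron positions on build mm9 were not used here, so whether the clone probe is exonic is not stated.

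Itpr2, a second receptor of the family, had 3 probes for NM_019923 that were measured on both arrays. They read 91.6, 6653 and 81.1 in the knockout, against 120, 8590 and 109 in the wild type, taken from the 3′-most probe to the probe 264 kb upstream. All 3 were lower in the knockout, by -0.35 ± 0.21, -0.34 ± 0.20 and -0.39 ± 0.22, and the gene's mean was -0.36. The probe 264 kb upstream, at chr6:146321651-146321710 on the minus strand, is shown because it gave nearly the same difference as probes at the other end of the gene.

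Itpr2 NM_019923, 264 kb upstream: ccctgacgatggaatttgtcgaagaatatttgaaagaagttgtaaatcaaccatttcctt

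With normexp the difference at this probe shrank to -0.18. A probe for ENSMUST00000137938 read 13.5 in the knockout, not well above background, and 27.3 in the wild type. With the knockout array's lowest usable signal in place of the dim value, that is at least 1.69-fold lower in the knockout, a bound that leaves out the scanner error. The difference of the signals as read was -0.98 ± 0.42. The probe for ENSMUST00000111673 read 3.42 in the knockout and 3.53 in the wild type and was above background on neither array.

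Itpr3, the third receptor of the family, has 1 probe (NM_080553, chr17:27259102-27259161, plus strand). It read 8894 in the knockout and 11750 in the wild type, a difference of -0.37 ± 0.20 or 1.29-fold. Over the 3 receptor genes 7 probes for RefSeq transcripts were measured, and 6 of them lay between -0.39 and -0.34. The exception was the 5′ probe of Itpr1. Each of these 6 differences was under 2 times its scanner error. Among the brightest 20% of genes 4.73% had a difference at or below that of Itpr3, and in the 20% around the middle of the signal range 12.8% were at or below Itpr2 and 8.88% at or below the Itpr1 mean of -0.45. That Itpr1 mean includes the clone probe. Over its 3 RefSeq probes alone Itpr1 averaged -0.20, with 23.2% of the same genes at or below it. Those genes were matched on the signal of all Itpr1 probes, the dim clone probe included, and not on the RefSeq probes alone. All 3 genes stayed below 0 under the 11 other settings tried, at -0.45 to -0.31 for Itpr1, -0.41 to -0.24 for Itpr2 and -0.38 to -0.26 for Itpr3. Settings of filtering and probe choice could not change Itpr3, which has 1 bright probe.

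**Figure D2:**
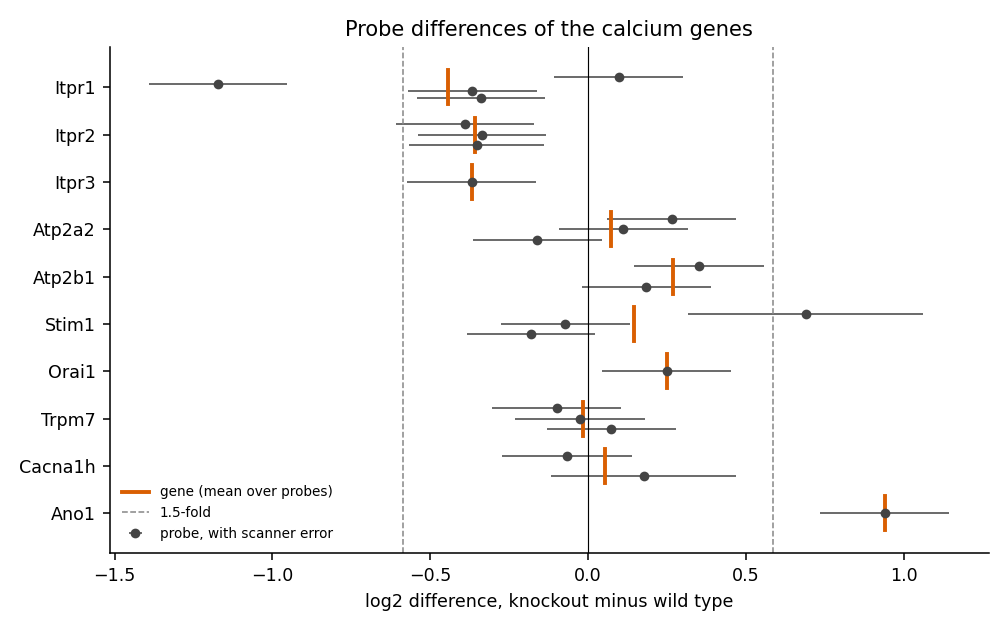
Log2 difference, knockout minus wild type, of each of the 23 probes measured on both arrays (dots, with the scanner error as horizontal lines), and the mean per gene (orange bars). The dashed lines mark 1.5-fold; the 3 Itpr genes lie left of 0 at -0.36 to -0.45, with the Itpr1 probes spread from -1.17 to 0.10, and Ano1 lies at 0.94.

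The genes that refill the stores and clear the cytosol differed little. Atp2a2 encodes SERCA2, the pump that returns calcium to the endoplasmic reticulum. Its 3 probes, from 3′ to 5′ in the gene, read 999, 6514 and 637 in the knockout, against 1143, 6166 and 543 in the wild type. The first was lower in the knockout (-0.16 ± 0.20) and the other two higher (0.11 ± 0.20 and 0.26 ± 0.20), none by more than 1.29 times its error, and the gene's mean was 0.07. Atp2b1, a plasma membrane pump that drives calcium out of the cell, read 1833 and 257 at its 2 probes in the knockout, against 1649 and 206 in the wild type. Both probes were higher in the knockout, by 0.18 ± 0.20 and 0.35 ± 0.21, with a mean of 0.27.

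Store-operated entry couples a sensor in the reticulum, Stim1, to a pore in the plasma membrane, Orai1. Orai1 has 1 probe, which read 998 in the knockout and 859 in the wild type, a difference of 0.25 ± 0.20. Stim1 had 2 probes near its 3′ end that read 1598 and 1050 in the knockout, against 1852 and 1130 in the wild type. Both were slightly lower in the knockout, by -0.18 ± 0.20 and -0.07 ± 0.20.

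The remaining measured Stim1 probe disagreed with these. It lies 169 kb upstream (NM_009287, chr7:109416978-109417037, plus strand) and read 24.8 in the knockout and 15.8 in the wild type, a difference of 0.69 ± 0.37. It was dim on both arrays, at 1.57 times the lowest usable signal in the knockout and 1.23 times in the wild type, and with normexp its difference shrank to 0.22. The gene's mean of 0.15 rests on this probe: at the stricter filter on dim probes, which leaves it out, the mean was -0.13. The fourth Stim1 probe, for the cDNA clone AK086594, read 3.41 in the knockout and 2.78 in the wild type and was above background on neither array. The sequence of the upstream probe is shown because it alone sets the gene's sign.

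Stim1 NM_009287, 169 kb upstream: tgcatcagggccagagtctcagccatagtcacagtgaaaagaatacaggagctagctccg

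It has 51.7% G and C, against a median of 38.3% over the 28 probes and 41.7% over the array.

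Trpm7 and Cacna1h form channels by which calcium enters the mouse egg from outside, Trpm7 as a channel fused to a kinase that also passes magnesium, and Cacna1h as the pore of a T-type voltage-gated channel. The 3 Trpm7 probes read 2347, 196 and 940 in the knockout, against 2282, 204 and 1029 in the wild type. Their differences of 0.07 ± 0.20, -0.02 ± 0.21 and -0.10 ± 0.20 were all within the scanner error of 0, and the mean was -0.02.

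Cacna1h had 2 of 4 probes above background on both arrays, which read 31.4 and 231 in the knockout, against 28.4 and 247 in the wild type. Their differences were 0.18 ± 0.29 and -0.07 ± 0.21, with a mean of 0.05. The 5′-most probe (NM_001163691) read 15.7 in the knockout, not well above background, and 18.9 in the wild type. With the knockout array's lowest usable signal in place of the dim value the gap was 1.17-fold. The difference of the signals as read, -0.23 ± 0.44, was within its scanner error, so this probe gives no direction. The fourth, for ENSMUST00000159052, read 10.3 in the knockout and 8.69 in the wild type, above background on neither array.

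Whether position along the gene orders the differences cannot be read from these probes. Among the 7 genes with several measured probes, the probe nearest the 5′ end had the highest difference in 4 (Itpr1, Atp2a2, Atp2b1 and Stim1) and the lowest in 3 (Itpr2, Trpm7 and Cacna1h). Atp2b1 and Cacna1h have 2 measured probes each, so the 5′ probe had to be highest or lowest. The Itpr2 and Trpm7 probes spanned 0.05 and 0.17, under the scanner error of a single probe. Probes of Itpr1 and of Stim1 disagreed by the rule used here, which asks for a gap over 0.5 across 0, or for 1 probe past 1.5-fold beside another within 1.2-fold or of opposite sign. The Atp2a2 probes also lay on both sides of 0, but 0.43 apart.

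**Figure D3:**
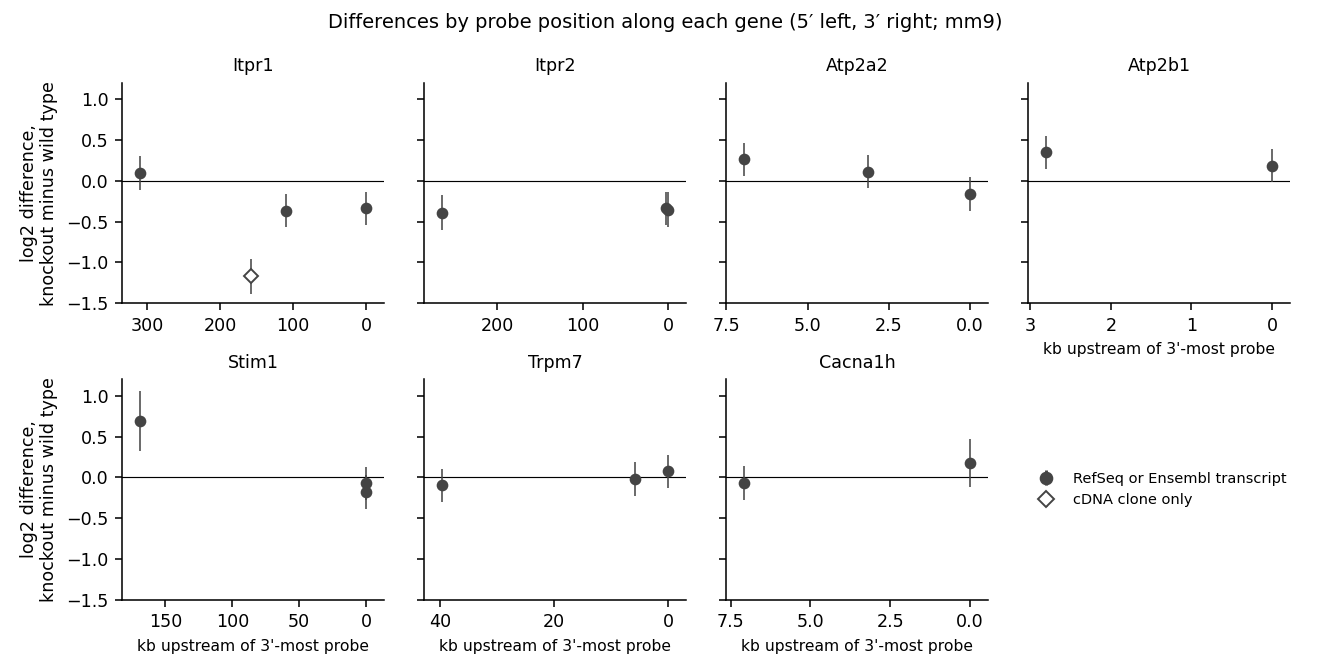
Log2 difference, knockout minus wild type, of each measured probe against its distance in kb upstream of the gene's 3′-most probe (5′ to the left), for the 7 genes with several measured probes. Vertical lines are the scanner error, and the open diamond is the Itpr1 clone probe AK049015 at -1.17; the Itpr2 probes 264 kb apart are level, while the 5′-most probes of Itpr1 and Stim1 lie above the others of their gene.

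Ano1 encodes a chloride channel that opens when cytosolic calcium rises, known from epithelia and smooth muscle. Its 1 probe (NM_178642, chr7:151774604-151774663, minus strand) read 1528 in the knockout and 815 in the wild type. The difference of 0.94 ± 0.20, or 1.92-fold, was 4.60 times the scanner error, and 98.9% of the genes in its 20% of the signal range had a difference at or below it. Over all genes 96.6% had a difference at or below that of Ano1. At the lower bar of 1.5-fold, 7.84% of all genes were higher in the knockout and 5.19% lower. Under scaling on the spike-in controls the share of higher genes among those at least 1.5-fold apart moved to 74.9%, against 60.1%. Ano1 stayed at least 1.5-fold higher under all 11 other settings, at 0.87 to 1.05, and passed 2-fold only with scaling on the spike-in controls, which raised the median of all genes to 0.14. Settings of filtering and probe choice could not change this value, since Ano1 has 1 bright probe.

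Markers of other cell types differed in the same comparison. Of the oviduct epithelium markers 10 of the 12 measured were higher in the knockout, where 54.8% of all genes were above 0, with a median of 0.66 and a summed signal of 121796 in the knockout and 78498 in the wild type, from Upk1b at -0.29 to Ovgp1 at 1.54. Markers of theca, stroma and smooth muscle were higher at 10 of 12, with a median of 0.35 and sums of 6970 in the knockout and 5772 in the wild type, from Dcn at -0.94 up to Cnn1, 2.31-fold higher in the knockout. All 16 myeloid markers were higher in the knockout, with a median of 1.61 and sums of 43155 in the knockout and 14105 in the wild type, from Itgam at 0.24 to S100a9 at 3.27. The 6 measured red cell markers were all lower in the knockout, with a median of -1.31 and sums of 19252 in the knockout and 59881 in the wild type, from Hba-a2 at -1.66 to Slc4a1 at -0.10. Cumulus and granulosa markers had a median of 0.08 and sums of 288229 in the knockout and 279736 in the wild type, from Ereg at -2.01 to Has2 at 1.16. The 8 measured endothelial markers had a median of 0.14 and sums of 3404 in the knockout and 3016 in the wild type, from Tek at -0.27 to Kdr at 1.13, while Tie1 and Emcn were above background on neither array. The part of these cell types in the Ano1 difference was not tested.

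The signs of the small differences depended on the settings for 3 of the genes. Atp2a2, Atp2b1 and Orai1 stayed above 0 under all 11 other settings, at 0.06 to 0.18, 0.18 to 0.38 and 0.22 to 0.36. Stim1 kept its sign in 8 of 11 (-0.18 to 0.26), Trpm7 in 9 (-0.03 to 0.09) and Cacna1h in 9 (-0.07 to 0.17). A sign kept under every setting settles no direction either, since all settings reread the same 1 array per genotype. The Atp2a2 mean of 0.07 was under the scanner error combined over its probes, 0.12. Orai1 has 1 bright probe, which filtering and probe choice could not change.

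**Figure D4:**
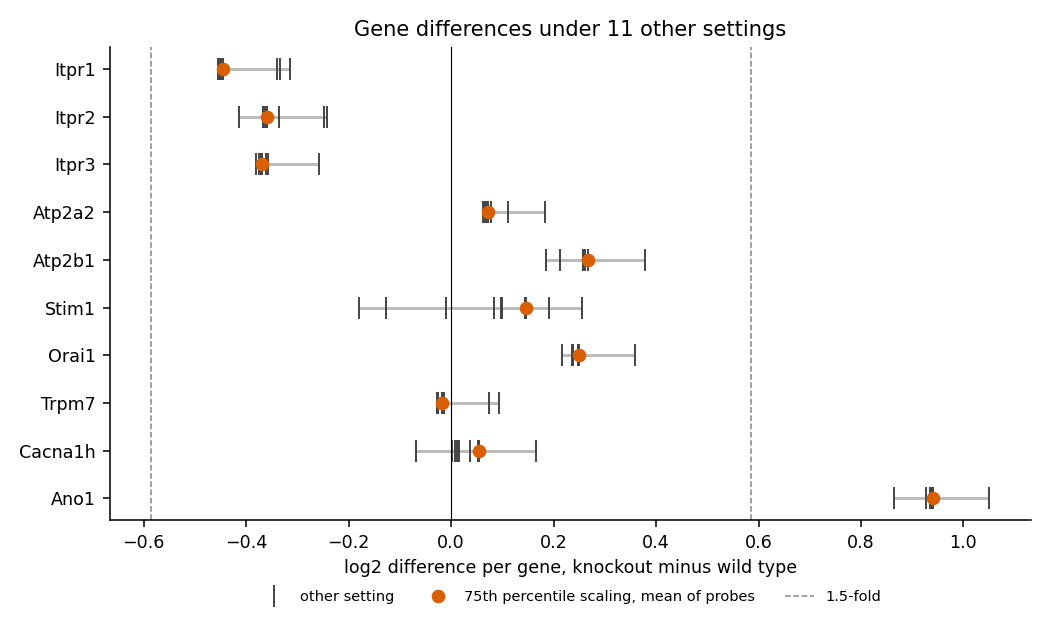
Log2 difference per gene, knockout minus wild type, with the 75th percentile scaling and mean over probes used throughout (orange dots) and under 11 other settings of scaling, background correction, filtering and probe choice (ticks, joined by a grey line). The dashed lines mark 1.5-fold; the ranges of the 3 Itpr genes stay below 0, those of Stim1, Trpm7 and Cacna1h cross 0, and Ano1 stays between 0.87 and 1.05.

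Other genes of calcium handling were read from 12 lists with 181 genes, of which 149 were measured on both arrays. Of the 149, 19 differed by 1.5-fold or more (14 upward in the knockout and 5 downward), 12.8% and close to the 13% of all genes. Upward were 73.7% of the 19, against 60.1% of all genes at least 1.5-fold apart. The median was 0.12, against 0.03 over all genes. Of the 80 with several measured probes 20 had probes that disagreed by the rule above. At least 2-fold higher were Ryr3, Atp2a3, Atp2b2 and Trpc6, and at least 2-fold lower was Hspa5.

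In the list of release channels and related genes, which leaves out the Itpr genes, 9 of 10 were higher in the knockout. Of the 10, 2 were at least 1.5-fold higher and 1 lower, against 7.84% and 5.19% of all genes. Of all genes 54.8% were above 0, and 59.1% of the dimmest 20% of genes, whose median was 0.11. Ryr3, a ryanodine receptor that releases stored calcium, read 61.2 in the knockout and 19.0 in the wild type at its 1 measured probe, a difference of 1.72. Its relatives Ryr1 and Ryr2 differed by 0.51 and 0.72, with Ryr2 probes averaging 32.6 in the knockout and 20.2 in the wild type. The ryanodine receptors therefore read opposite to the Itpr genes, with Ryr2 and the wild-type value of Ryr3 near the lowest usable signals. The lowest of the list was Tmbim6 at -0.59, with probes from -1.32 to 0.15.

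All 6 measured pump genes besides Atp2a2 and Atp2b1 were higher in the knockout, with a median of 0.55. At least 1.5-fold higher were 3 of the 6, against 7.84% of all genes. Of all genes 54.8% were above 0. Signals of the 6 were low, from 28.9 for Atp2b4 in the wild type to 266 for Atp2a3 in the knockout. Under the 11 other settings the list's median ran from 0.36 with normexp to 0.67 with scaling on the spike-in controls. Whether the pumps rose together was not tested. Atp2a3, the SERCA3 pump, read 266 in the knockout and 91.6 in the wild type, a difference of 1.57. Atp2b2, a plasma membrane pump, had a mean of 137 in the knockout and 60.5 in the wild type, a difference of 1.21 with probes at 0.72 and 1.71. Both exceeded their relatives among the 10, since Atp2a2 stood at 0.07 and Atp2b1 at 0.27. The other pumps Atp2a1, Atp2b4, Atp2c1 and Atp2c2 differed by 0.45, 0.28, 0.09 and 0.66, with disagreeing probes for Atp2b4 (-0.11 to 0.67) and Atp2c1 (-0.28 to 0.59), and Atp2b3 was above background in the knockout only.

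The relatives of Stim1 and Orai1 were nearly level. Orai2, Orai3 and Stim2 differed by 0.11, 0.04 and -0.01, and the 9 genes of their list ran from Tmem178 at -0.35 to Stimate at 0.32. None of the 9 was at least 1.5-fold apart, against 13% of all genes, which does not set so short a list apart. Of 11 measured TRP channels Trpc6 was highest at 1.06, with 3 probes spread from 0.11 to 1.61. Within the Trpm family Trpm1, Trpm3, Trpm4 and Trpm6 differed by 0.57, 0.65, 0.03 and -0.12, with the Trpm1 probes at -0.02 and 1.15, and Trpm2, Trpm5 and Trpm8 were above background on neither array.

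None of the 7 measured pore genes related to Cacna1h was at least 1.5-fold apart in its mean, against 13% of all genes, which does not set so few apart. Cacna1a, Cacna1b, Cacna1c, Cacna1d, Cacna1e, Cacna1i and Cacna1s lay between -0.09 and 0.30, although the probes of Cacna1i (-0.68 and 0.50) and of Cacna1b (-0.36 and 0.51) disagreed. Cacna1f was above background in the wild type only, and Cacna1g had no probe above background on both arrays. The highest of that list was Hvcn1, a proton channel and no calcium channel, at 0.91, and the lowest Cacnb2 at -0.21. The 6 measured anoctamin relatives of Ano1 were closer to equal than Ano1, with Ano2, Ano4, Ano6, Ano7, Ano8 and Ano10 between -0.19 and 0.33. Ano5 was above background in the knockout only, so it has no measured difference, and Ano3 and Ano9 on neither array, and the list's lowest gene was the chloride channel Best2 at -0.80.

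Upstream of the Itpr genes, the list of enzymes that make or break down inositol trisphosphate had 8 of 19 measured genes higher in the knockout, with a median of -0.03, from Plch2 at -0.78 to Plch1 at 0.84. Plcz1, the phospholipase of sperm, was above background on neither array. Partners of the receptors ran from Ahcyl2 at -0.45 (disagreeing probes, the highest at 0.01) to Itpripl2 at 0.53, with a median of 0.12. Calcium-binding proteins of the reticulum had a median of 0.09 and ran up to Rcn3 at 0.32, with Hspa5 as the exception. Hspa5, a chaperone that also binds calcium in the store, averaged 20380 in the knockout and 49755 in the wild type over 3 probes, a difference of -1.26 with probes from -1.48 to -0.81.

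Sodium-calcium exchangers (Slc24a3 at 0.00 to Slc8a3 at 0.47, with its probes at -0.12 and 1.05) and mitochondrial uptake genes (lowest Hspa9 at -0.19) held no gene at least 1.5-fold apart, against 13% of all genes. With 6 and 13 genes measured, that does not set these lists apart. Calcium effectors of egg activation ran from Snap25 at -0.81 (probes at -1.36 and -0.26) to Mylk at 0.94 (5 probes from 0.00 to 1.58), with a median of 0.02 over 19 measured genes. Of the 19, 4 were at least 1.5-fold higher in the knockout and 1 lower, against 7.84% and 5.19% of all genes. The part of myeloid, stromal or epithelial RNA in the higher genes of these lists was not tested.

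**Figure D5:**
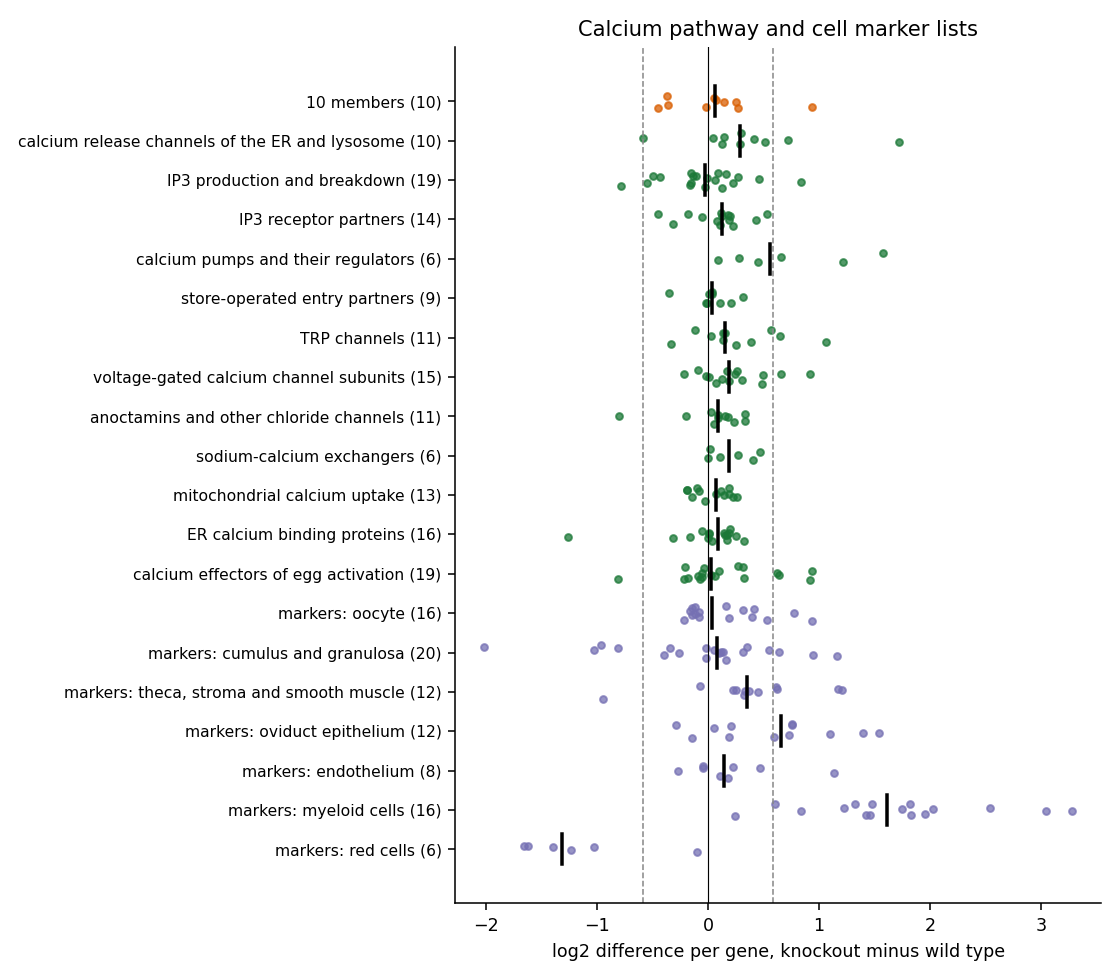
Log2 difference per gene, knockout minus wild type, for the 10 calcium genes (orange), 12 lists of related calcium genes (green) and 7 lists of cell markers (violet), with the number of genes measured in brackets and black bars at the medians. The dashed lines mark 1.5-fold; points are spread vertically only to part them. The 10 genes centre on 0.06, the pumps on 0.55, myeloid markers on 1.61 and red cell markers on -1.31.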

How the data were processed

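Total RNA of 1 pool of oocytes per genotype was amplified with a low-input Agilent kit and hybridised to arrays of design 074809, with probe positions on build mm9. The deposited scanner tables hold linear spot intensity, written by Agilent Feature Extraction 10.7.1.1 per the file headers, whereas 9.5.1.1 is the version in the submitters' processing notes. Per the file headers, the processed intensity was background-subtracted within each array and not normalised between arrays. The authors' deposited series-wide table of intensity has 56600 of the probes used. Its 2 columns have the same median of 57.9 and sorted values within 0.486% of each other, and follow the scanner values with r = 0.99999 across probes on each array, so its scale is linear and the same genes are high and low. It served as an alternative only.

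Here, control spots and outlier spots (84 on the knockout and 88 on the wild-type array) were left out, log2 of the processed intensity was averaged over spots of a probe, and each array's 75th percentile (signals of 790 on the knockout and 808 on the wild-type array) was subtracted. Of 56600 probes 64.5% were well above background on the knockout array and 66.0% on the wild-type array. A gene's difference is the mean over its probes above background on both arrays. A probe above background on 1 array gave a bound, with the other array's lowest usable signal in its place, and a probe above background on neither gave no fold. The bound leaves out the scanner error. No test was made, since each genotype has 1 array, and precision is limited by that number. Unequal pools (123 knockout and 213 wild-type oocytes) and amplification can distort the ratio of rare to abundant RNA. Computation used Python 3.11.15, numpy 2.4.6, pandas 2.3.3, R 4.3.3 and limma 3.58.1 (normexp with an offset of 50, quantile normalisation) and was tested on simulated data.

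Named with values are the 10 genes, their relatives in the same families, genes of the 12 lists at least 2-fold apart or otherwise the highest and lowest of a list, the highest and lowest of each marker list other than the oocyte list, Mul1, Gapdh and Actb, and 1 gene of a list is not reported here. Figla, Plcz1, Tie1 and Emcn are named only as above background on 1 array or neither. The 10 genes, the lists and these rules were chosen with earlier results of these data known. Probe sequences are those of the deposited scanner tables, and of probes for RefSeq transcripts only those with a stop-free reading frame at least 5 kb upstream of the gene's 3′-most probe are shown.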

Additional observations from a re-analysis of the deposited data

How the results depend on the processing

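The 11 alternatives gave 447 values, of which 438 moved by less than 0.20 (the largest SD between spots of any of the 286 repeated probes), or by at most 1.5 times for a count, 9 moved further and 0 turned a called value round. Part of the 447 could not move, since filtering and probe choice leave Itpr3, Orai1 and Ano1, with 1 bright probe each, unchanged. With scaling on 8 spike-in control probes 1 of the 10 genes, Ano1, was at least 2-fold apart, against 0 with the 75th percentile and the other alternatives. That scaling also moved the median of all genes from 0.03 to 0.14, so differences under it are best read against that shift. Of the 149 measured genes in the related lists 19 were at least 1.5-fold apart, and 8 of the 149 with normexp background correction. With no filter on dim probes it was 35 of 175 genes, and with a filter at 4 times the lowest usable signal 11 of 124. Over all genes it was 2986 of 22921, against 1203 of 22921 with normexp, 8644 of 37074 with no filter and 1634 of 18219 with the stricter one. The remaining moved values were Stim1 at -0.13 with the stricter filter and -0.18 at its brightest probe, and 3 dim probes under normexp (Itpr1 AK049015 at -0.75, the upstream Itpr2 probe at -0.18 and the upstream Stim1 probe at 0.22). The stricter filter removes dim probes by construction. Normexp was run with an offset of 50, added to the signals of both arrays, which shrinks the differences of dim probes by construction. The lower counts and smaller differences under normexp are therefore no separate evidence on background. How much of them came from the offset and how much from the background step was not tested. No paired analysis was possible because each genotype has 1 array. Of the 23 measured probes, 8 lay below 20 times the lowest usable signal on at least 1 array, with differences from -1.17 to 0.69 (median -0.05), and the other 15 ran from -0.37 to 0.94 (median -0.07). The largest scanner error, 0.37, was that of the dimmest Stim1 probe measured.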
